A study of Rattus norvegicus with 4 samples.

Results

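Contact peaks are pairs of places on a chromosome that were joined by Hi-C more often than the pairs around them. They were taken from the sum of 4 Hi-C libraries of rat Schwann cells, in bins of 10 kb on the numbered chromosomes. A pair was a candidate when its bins lay 100 kb to 2 Mb apart, shared 40 or more contacts in the sum, and each held at least 0.25 of the median number of contacts within the chromosome (cis contacts). A candidate was a contact peak when it had at least 2 times the mean of the pairs up to 5 bins away in both directions, with the inner 3 by 3 pairs left out, and the highest count within 2 bins. This ratio is called the enrichment. Of 62392 candidates, 12946 (20.7%) passed, and 49446 did not. The pairs were thus chosen by their contacts, enrichment and distance in the sum, which are described here without a test. The group labels were not used in the choice, but the sum weighs the deeper Lenti-GFP libraries more, and a peak that is high in 1 group can enter through that group.

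In the nuclei of vertebrates, the ring-shaped complex cohesin reels in DNA until it is held at sites bound by CTCF. In a Hi-C map a pair of such sites appears as a small bright spot, a loop, often at the corner of a square of raised contacts, the domain between them. The edges of domains are called boundaries, and few contacts cross them. Loops can bring promoters near distant regulatory DNA, and Egr2, which encodes a transcription factor that drives myelination in Schwann cells, is itself under the control of a distant enhancer.

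The Schwann cells, glia that wrap and myelinate peripheral axons, were primary cells of rat sciatic nerve, all cultured in DMEM with serum, forskolin and heregulin-β1. All were infected for 48 hours at 2 UFC per cell. Lenti-AS drives overexpression of Egr2-AS, an RNA antisense to the promoter of Egr2, and Lenti-GFP is the control virus with GFP. The study put Egr2-AS into the vector pLVX-DsRed-Express2-N1, while its control vector was pLVX-AcGFP1-N1. The groups thus differ in vector as well, and its part in a difference cannot be told apart from that of Egr2-AS. The question was whether Egr2-AS changes the loops of these cells. Each group held 2 libraries, and p-values measure only the spread between these libraries, since the sources call each an independent sample without saying whether it came from a separate animal or culture. Both groups carried a lentivirus, so no uninfected cells enter any comparison. Hi-C measures no expression, so the label of the cells could not be checked against marker genes.

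The libraries held 70488877 to 110770015 contacts, and both Lenti-AS libraries were shallower than both Lenti-GFP libraries. On the numbered chromosomes 232110 of 261882 bins passed the filter, with a median of 2181 cis contacts per bin. The Lenti-AS libraries differed from each other by more than sampling noise in their cis contacts per bin (chi-square per bin 1.20), as did the Lenti-GFP libraries (1.43). Duplicate contacts, if kept, would raise these values too, so they do not show separate libraries. All 4 were counted as separate because they are labelled so. At the candidate pairs themselves, where counts are lower, the chi-square per pair was 1.003 and 1.021. The spread behind the p-values of single pairs was thus little more than counting noise.

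The contact peaks had a median of 60 contacts in the sum, with quartiles of 47 and 84 and a highest value of 3126. Their median enrichment was 4.07, with quartiles of 2.90 and 6.23. Against the mean of all pairs at the same distance, their median was 9.08 times, compared with 5.69 times for all candidates. In single libraries a contact peak rested on few counts, with medians of 17 and 19 contacts in Lenti-GFP replicates 1 and 2 and of 13 in both Lenti-AS libraries. No contact peak was without a contact in any library, and the lowest count in a library was 1. The peaks just inside the threshold had 50, 46 and 48 contacts over surrounding means of 25.0, 23.0 and 24.0. The pairs just outside had 56, 49 and 45 contacts over 28.0, 24.5 and 22.5.

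Stacked on each other, the peaks gave a bright centre on a cross of raised contacts. This was seen in all 4 libraries. They are parts of the sum in which each peak had to stand above its surroundings, so the bright centre follows from the rule. For the 6837 peaks 200 kb or more apart, contacts were divided by the surrounding mean of the sum, scaled to the contacts of the library, and the median of the centre was 5.20 and 5.12 for Lenti-GFP, and 5.35 and 5.37 for Lenti-AS. One bin away, at pairs that kept 1 of the anchors, it was 2.34 to 2.40, and at pairs 1 bin away from both anchors 1.41 to 1.47. The cross reached further than the spot. At 50 kb from the second anchor, averaged over both sides, pairs with the first anchor still had 1.08 to 1.11 times that mean. The corner between the anchors was fuller than the corner outside them, with 0.827 to 0.887 of that mean at 50 kb inside and 0.306 to 0.332 at 50 kb outside. Contacts fall with distance, and the inside corner is closer to the diagonal, so the difference of the corners holds that decline as well. At like distance the ratio of the inside to the outside corner was close to that of the candidates that were not peaks, with medians of 3.61 and 3.50 from 100 to 150 kb, 1.72 and 1.60 from 300 to 500 kb and 1.10 and 1.11 from 1 Mb on. Pooled over all distances it was 2.22 for peaks and 2.58 for these candidates, which were shorter.

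**Figure D1:**
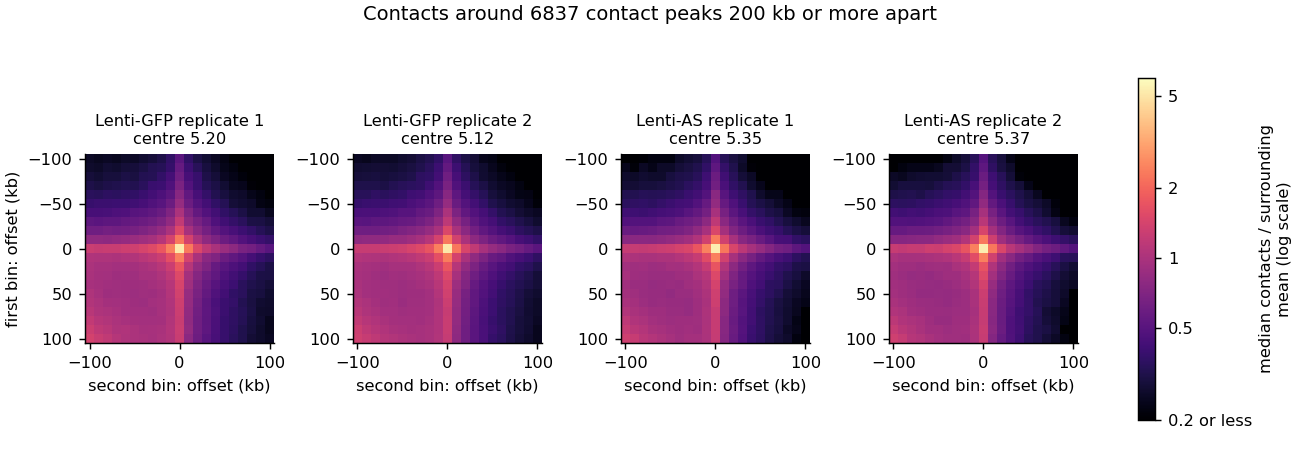
Median contacts of 6837 contact peaks 200 kb or more apart, divided by the surrounding mean of the sum scaled to each library (colour, log scale, darkest at 0.2 or less), against the offset of the first bin (vertical axis, kb) and of the second bin (horizontal axis, kb), 1 panel per library. The centre is at 5.12 to 5.37 in all 4 libraries, arms run along both anchors, and the lower left corner, between the anchors, is brighter than the upper right corner.

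Some peaks stood at the corners of domains. Corner peaks are given here as those with both anchors within 1 bin of a boundary, no boundary between, 2 times or more the mean of pairs with the same first bin and of pairs with the same second bin, and all 112 surrounding pairs in use. Of the 4156 peaks that met the criteria of form and had no more contacts than their anchors had with adjacent bins, 493 were at such corners, and the form was defined after the values were seen. The highest enrichment among them, 15.4, joined chr14:12370001-12380000 and chr14:12900001-12910000, 530 kb apart. Its Lenti-GFP libraries held 49 and 54 contacts, its Lenti-AS libraries 24 and 23, over a surrounding mean of 9.76 in the sum. Scaled to the same contacts at this distance, these were 45.0, 42.4, 28.5 and 28.8, so the groups did not overlap. Its log2 fold change of -0.60 (SE 0.25) did not pass in edgeR (adjusted p = 0.635).

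The next corner peaks were much alike in height. A pair 320 kb apart, chr2:184270001-184280000 and chr2:184590001-184600000, had 50, 54, 33 and 37 contacts in the order Lenti-GFP 1 and 2 and Lenti-AS 1 and 2, and an enrichment of 14.5. Scaled, its libraries held 45.7, 42.6, 39.3 and 46.5, and the groups overlapped. On chr3:35240001-35250000 and chr3:35780001-35790000, 540 kb apart, the counts were 45, 42, 24 and 25 and the enrichment 14.2. The pair chr5:115620001-115630000 and chr5:116380001-116390000, 760 kb apart, had 31, 26, 26 and 16 contacts and an enrichment of 14.0. Each of these was above its surrounding in every library, with the lowest single-library enrichment, 11.3, in Lenti-AS replicate 2 at the pair on chromosome 5. By contacts, the strongest corner peak was much shorter. It joined chr10:55870001-55880000 and chr10:55990001-56000000, 120 kb apart, and had 65, 66, 52 and 54 contacts at an enrichment of 9.49. Scaled, its libraries held 59.3, 52.1, 61.8 and 67.8, higher in both Lenti-AS libraries. Its log2 fold change of 0.22 (SE 0.20) did not pass in edgeR (adjusted p = 0.908).

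The peaks differed in how far they stood above the pairs that share an anchor with them. Of the 12946, 7897 (61.0%) were 2 times or more above both the pairs that share their first bin and those that share their second bin, at 2 to 5 bins from the peak. A further 4413 (34.1%) were so on 1 side only, and 633 (4.89%) on neither. The peaks above both sides were further apart (median 250 kb) than those above 1 side (170 kb) or neither (140 kb), and their median enrichment was 5.50, compared with 2.87 and 2.23. Among all candidates 26.7% were above both sides. This measure was set after the values were seen, and since the peaks that missed it were also the lowest, it does not tell a weak spot from a stripe. The name "contact peak" is used for all, as a punctate form was not shown for each.

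Neighbouring bins usually touch more than distant bins. Among the peaks, however, 1320 (10.2%) held more contacts than 1 of their anchors had on average with the bins beside it. Of all candidates 2516 (4.03%) did so. These peaks had a median of 111 contacts and a median enrichment of 8.56, and they made up 28.5% of the peaks at 1 Mb or more but 7.64% of those from 100 to 150 kb. They also made up 52.0% of the 100 peaks with the highest enrichment. Whether their bins lie in the animals' genome where the build places them was not tested. The remaining 11626 peaks had a median enrichment of 3.84.

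**Figure D2:**
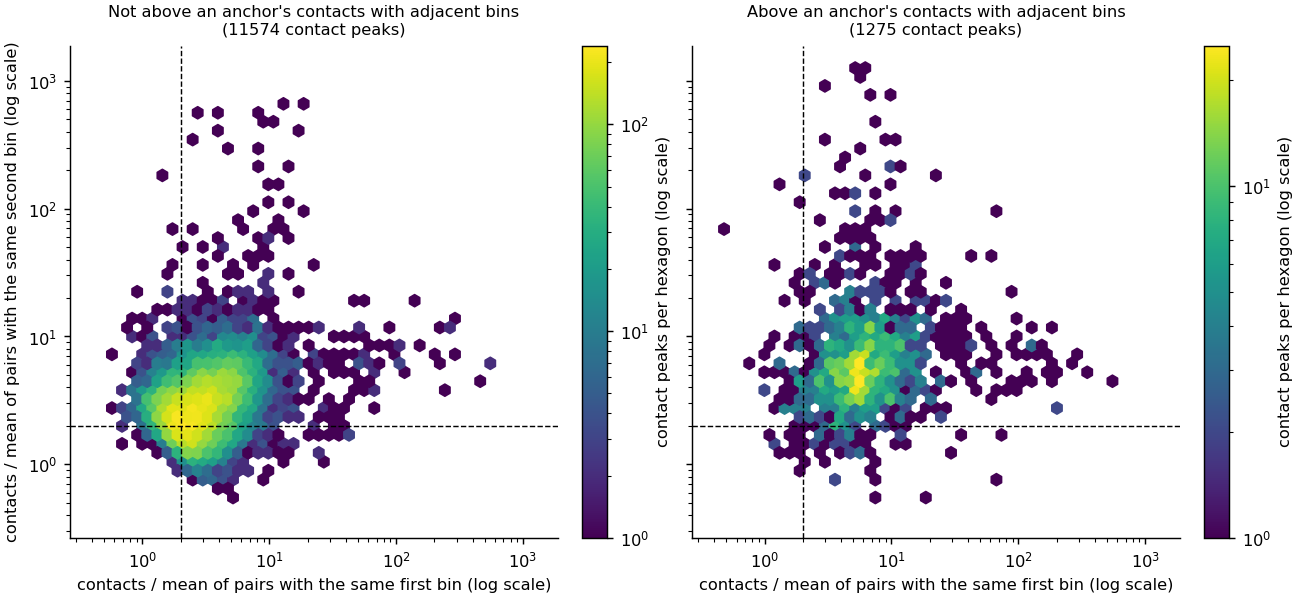
Contacts of each peak divided by the mean of pairs with the same first bin (horizontal axis) and by the mean of pairs with the same second bin (vertical axis), both 2 to 5 bins away and on log scales, with colour for the number of peaks per hexagon. The left panel holds peaks not above an anchor's contacts with adjacent bins, the right panel those above, dashed lines mark 2 times, and 97 peaks without a finite value above 0 on both axes are not drawn. Most peaks lie up and right of both lines, and arms along either axis hold peaks that stand far above 1 side only.

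The highest enrichments belonged to pairs in nearly empty surroundings. The leading pair, chr9:4500001-4510000 and chr9:4780001-4790000, had 13, 17, 9 and 13 contacts (Lenti-GFP 1 and 2, then Lenti-AS 1 and 2) over a surrounding mean of 0.279, which gave 186 times. Its surrounding mean came from 68 of 112 pairs. Next stood chr14:47850001-47860000 with chr14:48080001-48090000, whose 53 contacts were set against only 3 usable surrounding pairs (159 times). The pair chr8:89370001-89380000 and chr8:90650001-90660000 lay 1280 kb apart and had 27, 27, 13 and 19 contacts, 688 times the mean of pairs with the same second bin but 18.8 times that of pairs with the same first bin. Of the leading 6, chr10:69760001-69770000 with chr10:71150001-71160000 was the only pair with all surrounding pairs in use and fewer contacts than its anchors had with adjacent bins. It crossed 7 boundaries, had 24, 21, 6 and 9 contacts and stood at 137 times. The remaining pairs were chr6:139070001-139080000 with chr6:139910001-139920000 (131 times) and chr18:80960001-80970000 with chr18:82120001-82130000 (113 times). In the last, no usable pair with the same second bin held a contact at 2 to 5 bins from the peak. The pair on chromosome 6 rested on 4 surrounding pairs. Another peak, chr14:760001-770000 with chr14:1740001-1750000, had 52 contacts over 2 surrounding pairs without a contact, and its enrichment has no value.

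The most contacts were found in a single region of chromosome 1. The pair chr1:55220001-55230000 and chr1:55650001-55660000, 430 kb apart, had 916, 995, 641 and 574 contacts, 38.6 times its surrounding and 954 times the mean at its distance. It had more contacts than the mean of 453 that its first bin had with adjacent bins. The first bin recurred in the pairs with 1503 and 1402 contacts, whose second bins started at 55700001 and 55730001. The remaining pair of the 4 joined chr1:55710001-55720000 and chr1:56000001-56010000 with 2271 contacts.

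The longest peaks reached the limit of the rule. At 2000 kb, chr1:154500001-154510000 and chr1:156500001-156510000 had 31, 31, 22 and 27 contacts and an enrichment of 12.3, with 2 boundaries between. The other pair at 2000 kb, chr10:22200001-22210000 with chr10:24200001-24210000, had 41 contacts in the sum and an enrichment of 2.67. At 1990 kb, chr4:119480001-119490000 and chr4:121470001-121480000 had 22, 17, 10 and 9 contacts and an enrichment of 69.3, across 6 boundaries.

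Peaks were longer than candidates, with a median distance of 200 kb (quartiles 140 and 350) compared with 160 kb. From 100 to 150 kb lay 26.7% of the peaks and 44.1% of the candidates, and from 500 kb to 1 Mb 11.0% and 6.54%. The share of candidates that were peaks went from 12.6% in the shortest class to 35.0% between 500 kb and 1 Mb. With distance the median contacts changed little, between 57 and 66, while the surrounding mean fell from 22.3 to 8.66. Median enrichment went from 2.91 to 7.96 over the classes, and this order held in every library. The minimum of 40 contacts was the same at every distance, so a pair in low surroundings could enter only at a high enrichment. The libraries are also parts of the sum that chose the peaks. The order thus follows in part from the rule and does not show that longer peaks are stronger. The share above both sides was 46.2% in the shortest class, 83.9% from 500 kb to 1 Mb and 81.3% beyond.

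**Figure D3:**
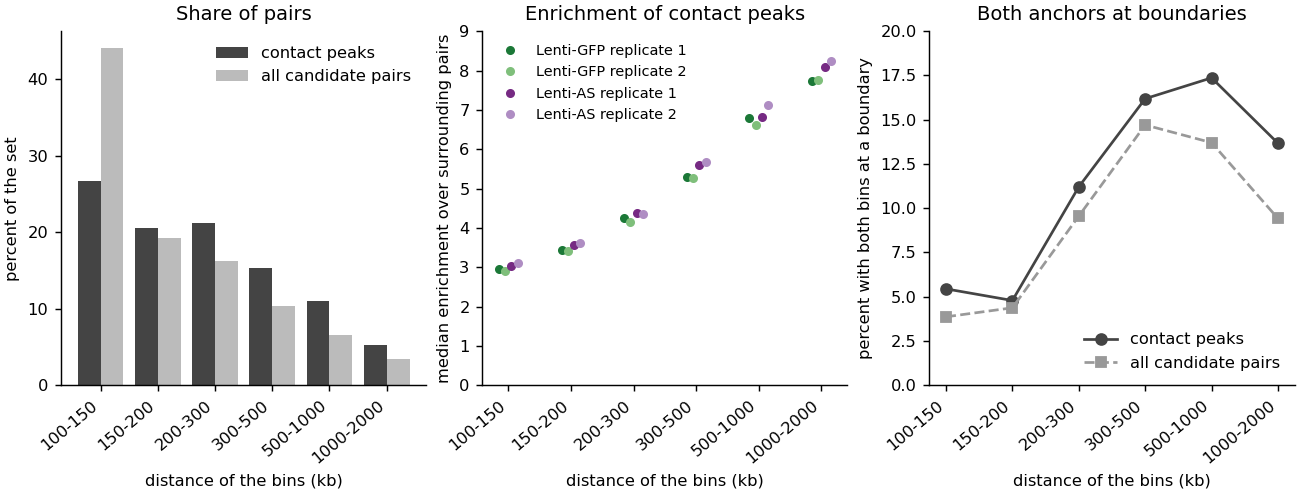
Left, percent of contact peaks (dark bars) and of all candidate pairs (light bars) by distance of the bins in kb. Middle, median enrichment of the peaks per distance class in each of the 4 libraries, which goes from 2.91 to 3.11 in the shortest class to 7.73 to 8.25 in the longest. Right, percent of pairs with both bins within 1 bin of a boundary, for peaks (circles) and candidates (squares), highest for peaks at 500 to 1000 kb with 17.4%.

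Boundaries were local minima of an insulation score, the mean contact across a bin within 200 kb, with a prominence of at least 0.2, and 7131 were found in the summed libraries. A bin had a score only where enough of the pairs across it were of usable bins. Stretches without a score hold no boundary and count as such in all shares given here. Anchors lay at boundaries more often than other bins. Of 18411 anchor bins, 25.0% were within 1 bin of a boundary (95% Wilson interval 24.4% to 25.7%, counting error only), compared with 8.82% of all used bins. Boundaries and peaks come from the same counts, so this is a description. Both anchors were at a boundary in 1285 peaks (9.93%), 1 anchor in 4774 (36.9%) and neither in 6887 (53.2%). Among candidates these shares were 6.84%, 31.4% and 61.8%. The share of peaks with both anchors at a boundary was 5.44% from 100 to 150 kb, 4.79% from 150 to 200 kb and 17.4% from 500 kb to 1 Mb. Among candidates of like distance these shares were 3.86%, 4.37% and 13.7%. Peaks were longer than candidates, so the shares over all distances hold that difference as well.

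Within each distance class, enrichment went in the order of the number of anchors at a boundary. From 300 to 500 kb the median was 6.65 for the 322 peaks with both anchors there, 5.67 for the 845 with 1 and 4.70 for the 822 with neither. From 100 to 150 kb these medians were 4.11, 3.17 and 2.77. From 1 Mb on they were 10.0, 8.09 and 7.20. Form followed the same order, since from 300 to 500 kb 93.5% of the peaks with both anchors at boundaries stood above both sides, compared with 65.9% of those with neither. Few contacts cross a boundary in the same sum, and pairs across it are part of the surroundings of these peaks. The order of enrichment and form thus does not tell a stronger spot from emptier surroundings. The share with more contacts than an anchor had with its adjacent bins did not follow one order. It was 15.4% with both anchors at boundaries and 7.73% with neither from 100 to 150 kb, but 6.85% and 25.5% from 500 kb to 1 Mb.

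Most peaks crossed no boundary. Between the anchors of 10305 peaks (79.6%) lay none, of 1650 (12.7%) 1, and of 991 (7.65%) 2 or more. Among candidates, which were shorter, 87.1% crossed none. Within the 4 classes below 500 kb peaks also crossed none slightly less often, for example 97.2% compared with 98.2% from 100 to 150 kb and 69.7% compared with 72.3% from 300 to 500 kb. From 500 kb to 1 Mb the shares were 29.7% and 28.7%, and from 1 Mb on 17.4% and 14.0%. Of the 1285 peaks with both anchors at boundaries, 929 had none between and 356 had 1 or more. Seen from the boundaries, 3610 of 7131 (50.6%) had an anchor within 1 bin. Ranked by prominence into 4 equal groups, they had an anchor in 41.9%, 50.1%, 55.6% and 55.0%, from the weakest to the most prominent.

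The anchors faced their partners. Directionality is the difference of a bin's contacts downstream and upstream, in percent of their sum. Bins that were the first anchor only had a median of 31.6%, and 86.8% of them had more contacts downstream, while bins that were the second anchor only had a median of -32.2%. Bins with peaks on both sides had a median of -1.34%, and all used bins of 0. The peaks' own contacts are part of these sums. Anchors also had more cis contacts than used bins (1.32 times the median bin, compared with 1.05) and a lower share of contacts with other chromosomes (median 11.2%, compared with 12.7%). The minimum of 40 contacts per pair favours bins with many cis contacts. The rule itself can thus raise the first value and lower the second.

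Many peaks had an anchor in common. Of the 18411 anchor bins, 5038 (27.4%, interval 26.7% to 28.0%) were used by more than 1 peak, 1609 by 3 or more and 181 by 5 or more, and 9294 peaks (71.8%) shared an anchor with another. Bins with peaks on both sides numbered 1131. The more peaks a bin anchored, the more often it was at a boundary, with 21.4% for 1 peak, 32.3% for 2 and 39.7% for 3 or more. For bins with peaks on both sides it was 38.8%. In 545 cases 3 bins were joined pairwise by 3 peaks, which took in 1411 peaks (10.9%). Some shared anchors belong to close neighbours, as 38.8% of the peaks had another peak within 5 bins of both anchors.

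**Figure D4:**
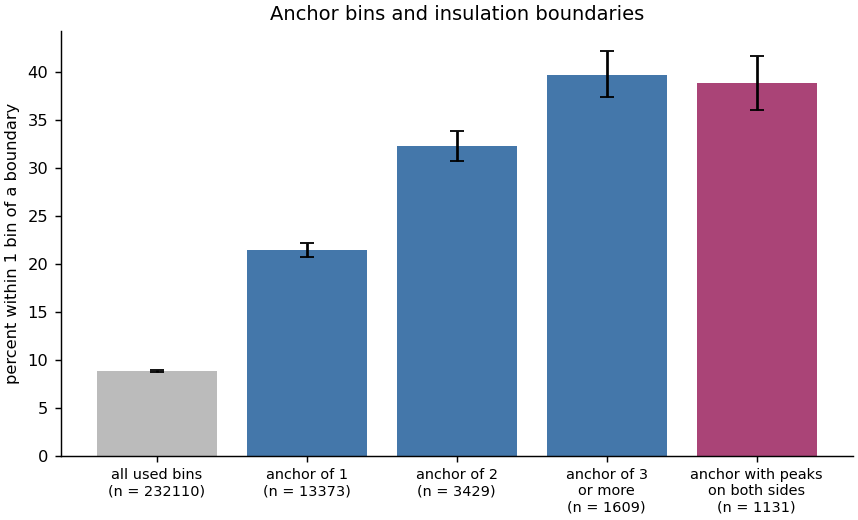
Percent of bins within 1 bin of a boundary, for all used bins, for anchors of 1, 2 and 3 or more contact peaks, and for anchors with peaks on both sides, with 95% Wilson intervals that cover counting error only. The share is 8.82% for used bins and 39.7% for anchors of 3 or more peaks.

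Joined by shared anchors, the peaks formed 6144 groups. Of these 3652 were single peaks, 1074 were pairs, 1328 held 3 to 9 peaks, and 90 held 10 or more. The 90 large groups took in 1297 peaks (10.0%). The largest, with 80 peaks on 46 bins, spanned 3030 kb of chromosome 19 from 26290001. In it 74 peaks had more contacts than an anchor with its adjacent bins. Next were 71 peaks on chromosome 1 from 53510001 (48 of them above) and 38 on chromosome 15 from 5040001 (33 above). The share of such peaks varied widely among the other large groups. The 24 peaks on chromosome 3 from 49510001, on 17 bins over 1430 kb, included 1, and the 19 on chromosome 3 from 9000001 none, while on chromosome 20 from 4630001 all 21 were above and on chromosome 16 from 21670001 16 of 20.

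The bin that anchored most peaks stood in the largest group. On chr19:27810001-27820000, 19 peaks met, at 130 to 1510 kb, with 45 to 474 contacts each. This bin held 4.99 times the median cis contacts, sent 34.1% of its contacts to other chromosomes, and had a mean of only 59 contacts with adjacent bins, compared with a median of 185 over used bins. Of its peaks 18 had more contacts than 1 of their anchors had with adjacent bins. Its highest enrichment, 33.5, was with the bin that starts at 28950001, with 119, 136, 123 and 96 contacts in the 4 libraries. On chr1:54950001-54960000, 17 peaks met, and 12 of them were above an anchor's contacts with adjacent bins. On chr1:194910001-194920000 all 11 peaks ran downstream, up to 920 kb, and none was above. This bin had 16.4 times the median cis contacts, 10.3% of its contacts with other chromosomes, and 850 contacts with adjacent bins. With 10 peaks each followed chr12:1510001-1520000, which had 16.2 times the median cis contacts, and chr19:27940001-27950000, which had a mean of 5 contacts with adjacent bins. None of these 5 bins was at a called boundary. Around some of them a boundary could hardly be called, as the score needs enough usable bins. At 27 to 28 Mb of chromosome 19 only 36 bins were usable, and at 54 to 55 Mb of chromosome 1 67 were.

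The peaks recurred in single libraries. In all 4 libraries 9992 peaks (77.2%) had an enrichment of 2 or more on their own counts, compared with 39.5% of candidates, and 65 had it in 1 library only. These counts are part of the sum that chose the peaks. So the rule was also run on the sum of 3 libraries, with the minimum count scaled to their contacts, and the peaks were measured in the library left out. Of 13152, 13781, 13168 and 13427 peaks chosen without Lenti-GFP 1, Lenti-GFP 2, Lenti-AS 1 and Lenti-AS 2, 82.3%, 81.4%, 83.7% and 82.7% had an enrichment of 2 or more in the library not used. Their median enrichment was 3.57, 3.43, 3.75 and 3.75 there, lower than the 4.02 to 4.09 in the sums that chose them. Of the 12946 peaks, 82.1% to 85.6% were found again from 3 libraries.

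Enrichment was slightly higher in Lenti-AS. The median over all peaks was 3.99 and 3.98 in Lenti-GFP and 4.15 and 4.18 in Lenti-AS. The group means were 3.98 ± 0.0096 and 4.16 ± 0.018 (SD, n = 2), a difference of 0.180 or 4.53%. Both Lenti-AS libraries lay above both Lenti-GFP libraries, and the two-sided exact permutation p of 0.3333 is the smallest that 4 libraries allow. The medians of all candidates stood in the same order, with 2.35 and 2.34 in Lenti-GFP and 2.39 and 2.40 in Lenti-AS. The summed contacts of all peaks over their summed surrounding means were 4.35 ± 0.0202 for Lenti-GFP, and 4.53 ± 0.0175 for Lenti-AS (SD, n = 2, exact permutation p = 0.3333). The share of peaks at 2 times or more within a library was 92.8% ± 0.655 and 92.2% ± 0.645 (exact permutation p = 0.667).

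In the balanced matrices, of which 1 was deposited per group, the difference was close to 0, with medians of 3.01 in Lenti-GFP and 3.02 in Lenti-AS and no replicates to test. The medians of all candidates were 1.87 and 1.86 there, in the reverse order. Of the peaks 68.1% had 2 times or more the surrounding mean in both, compared with 38.7% of candidates. In the balanced Lenti-AS matrix 19.2% of the pairs with signal up to 2 Mb had no contact in either Lenti-AS library, compared with 2.42% for Lenti-GFP, so it holds signal at pairs where these libraries have no contact.

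Single peaks were then compared between the groups with edgeR over all 62392 candidates, with offsets for what each library holds at that distance. At an adjusted p of 0.05, 20 candidates (0.0321%) were called, among them 6 of the 12946 peaks (0.0463%), 5 higher and 1 lower in Lenti-AS. For the directions the shares of candidates were 0.0208% and 0.0112%. At an unadjusted p below 0.05 were 997 peaks (7.70%) and 6.61% of candidates. Of these peaks 693 were higher in Lenti-AS (5.35%, compared with 4.03% of candidates) and 304 lower (2.35%, compared with 2.58%), while TMM factors in place of the offsets by distance gave 564 and 391 peaks, and 2123 and 1919 of all candidates. DESeq2 called 1 peak, which was the only one called among the 62392 candidates. With a library left out, the median log2 fold change was 0.05 to 0.09 over the peaks and 0.03 to 0.07 over all candidates. Those fits take the lone library of a group to vary like the pair of the other, so their calls are not given. Of the 5 higher calls, 4 would not have been candidates at the rate of Lenti-GFP alone, so they had to be higher in Lenti-AS to enter.

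Contacts at the peaks leaned to Lenti-AS by little. The median log2 fold change was 0.07 over the peaks and 0.05 over all candidates, with TMM factors 0.03 and 0.0071, and with the cis contacts of both bins in the offsets 0.034 and 0.032. Both Lenti-AS libraries lay above both Lenti-GFP libraries at 2872 peaks (22.2%), compared with 20.4% of candidates, and below both at 1802 (13.9%), compared with 15.5%. By distance class the median log2 fold change of the peaks was between 0.06 and 0.09. It was 0.08 for peaks with both anchors at a boundary and 0.06 for those with neither.

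The study's cut-offs for a changed loop are an unadjusted p below 0.05 with a log2 fold change beyond 1. The study applied them to HiCDCPlus results on its own set of loops, and here they were applied to edgeR p-values. By this rule 133 peaks (1.03%) were gained and 100 (0.772%) lost in Lenti-AS. Among all candidates the shares were 1.19% and 1.25%. The p-values depend on the tool, since DESeq2 with the same offsets put 56 of 12946 peaks and 208 of 62392 candidates below an unadjusted p of 0.05. The gained peaks had a median distance of 240 kb and 49 contacts, and the lost peaks 190 kb and 45 contacts, compared with 200 kb and 60 contacts over all peaks. At 131 of the gained and 98 of the lost peaks the groups did not overlap, a form that the rule itself favours. Most of these peaks entered through the group where they were high. At the rate of Lenti-GFP alone 108 of the gained peaks, and at the rate of Lenti-AS alone 95 of the lost peaks, would have missed the minimum of 40 contacts or the bin filter. Over all 12946 peaks these numbers were 1246 and 1380.

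**Figure D5:**
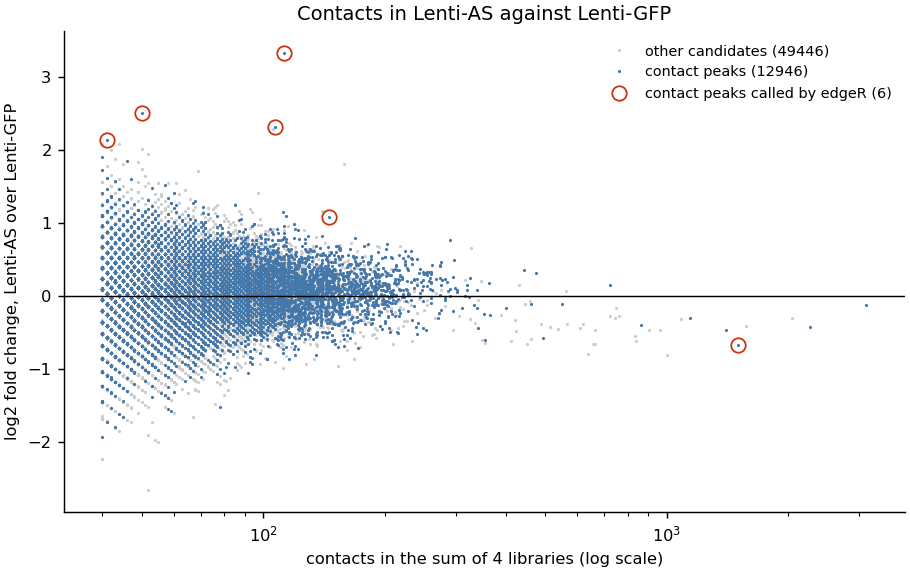
Log2 fold change of contacts, Lenti-AS over Lenti-GFP, from edgeR against the contacts in the sum of 4 libraries (log scale), for 49446 other candidates (grey), 12946 contact peaks (blue) and the 6 peaks called at an adjusted p of 0.05 (red circles). The scatter narrows with the number of contacts, and 5 of the 6 called peaks are above 0.

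The largest increase joined chr1:180850001-180860000 and chr1:181280001-181290000, 430 kb apart. It had 9 and 5 contacts in Lenti-GFP, and 57 and 42 in Lenti-AS. Scaled for distance, that was 6.07 ± 2.998 and 60.3 ± 10.8 (SD, n = 2), a log2 fold change of 3.32 (SE 0.33, edgeR adjusted p = 1.62e-19). A second called peak, chr1:180640001-180650000 with chr1:180800001-180810000, had 13, 11, 38 and 45 contacts and a log2 fold change of 2.31 (SE 0.30, adjusted p = 8.69e-10). Both had 1 usable surrounding pair, since nearly all bins around them had too few contacts. The cis contacts of these bins moved with the peaks. The 4 bins held 0.276 to 0.408 of the median cis contacts in the sum, but 0.117 to 0.173 in Lenti-GFP and 0.465 to 0.748 in Lenti-AS, so they passed the minimum of 0.25 through Lenti-AS only, and their cis contacts, scaled to library size, were 3.12 to 4.53 times as high in Lenti-AS. With these totals in the offsets, the log2 fold changes were -0.96 and -1.47 and neither passed (adjusted p = 0.945 and 0.194). Over the alternatives with all libraries the adjusted p went from 6.67e-21 to 0.989 for the first and from 7.03e-11 to 0.194 for the second. TMM factors, the replicate number as a block and minimum counts of 20 and 80 called both. Offsets from the surrounding pair called the second in the other direction (log2 fold change -1.99, edgeR adjusted p = 0.0109).

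The third was part of the large group on chromosome 19. It joined chr19:27870001-27880000 and chr19:28960001-28970000, 1090 kb apart, where Lenti-GFP had 2 and 8 contacts and Lenti-AS had 15 and 25. Scaled, these were 4.05 ± 3.14 and 24.6 ± 9.41 (SD, n = 2), and the log2 fold change was 2.50 (SE 0.45, edgeR adjusted p = 0.000243). At the rate of Lenti-GFP the sum would have held 17.1 contacts, below the minimum of 40, and its enrichment was 0.563 and 2.32 in Lenti-GFP and 4.83 and 13.0 in Lenti-AS. The cis contacts of its bins were 1.18 and 1.04 times as high in Lenti-AS. It had more contacts than the mean of 12 that its first bin had with adjacent bins. With all libraries kept, the edgeR alternatives called it, with adjusted p from 0.000174 to 0.00797, and DESeq2 did not. With a library left out the log2 fold change went from 1.94 without Lenti-GFP replicate 1 to 3.64 without Lenti-GFP replicate 2.

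The only called decrease was in the region with the most contacts. At chr1:55220001-55230000 with chr1:55700001-55710000, the counts were 494, 555, 241 and 213, or scaled 444 ± 10.1 for Lenti-GFP, and 278 ± 14.7 for Lenti-AS (SD, n = 2). The log2 fold change was -0.67 (SE 0.13, edgeR adjusted p = 0.000676). The cis contacts of both bins were also lower in Lenti-AS, at 0.766 and 0.772 of Lenti-GFP, each a smaller fall than that of the peak. With these in the offsets the log2 fold change was 0.052 (adjusted p = 0.996). TMM factors, the replicate number as a block and minimum counts of 20 and 80 called it. DESeq2 did not, and neither did offsets from the surrounding pairs (log2 fold change -0.43, edgeR adjusted p = 0.232). With a library left out the log2 fold change was between -0.73 and -0.62. In the balanced matrices this pair stood at 1.39 times its surrounding mean in Lenti-GFP and 1.05 times in Lenti-AS. Both values are below the minimum of 2 that was set for a contact peak in the sum.

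The remaining calls had larger adjusted p and complete surroundings. At chr10:37270001-37280000 with chr10:37420001-37430000, 150 kb apart, the counts were 22 and 37 in Lenti-GFP and 47 and 40 in Lenti-AS. Scaled, these were 24.7 ± 6.46 and 53.0 ± 3.89 (SD, n = 2), a log2 fold change of 1.08 (SE 0.25, edgeR adjusted p = 0.0341). Its enrichment was 2.78 and 4.43 in Lenti-GFP and 7.34 and 7.99 in Lenti-AS, and the cis contacts of its bins were 0.988 and 1.08 times as high in Lenti-AS. At chr1:52460001-52470000 with chr1:52720001-52730000, 260 kb apart, there were 5, 5, 14 and 17 contacts, with a log2 fold change of 2.13 (SE 0.48, adjusted p = 0.0338). This pair too would have held 17.1 contacts at the rate of Lenti-GFP, and its enrichment was 1.31 and 1.21 there and 4.01 and 6.52 in Lenti-AS. The pair on chromosome 10 was called again with the replicate number as a block and at 80 or more contacts. The pair on chromosome 1 was called again with the block and with TMM factors. No other alternative with all libraries called either pair. With a library left out the log2 fold changes were 0.86 to 1.40 on chromosome 10 and 1.95 to 2.31 on chromosome 1.

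Among decreases, the second smallest p belonged to chr20:30100001-30110000 with chr20:30260001-30270000, where Lenti-GFP had 26 and 37 contacts and Lenti-AS had 6 and 9. Its log2 fold change of -1.52 (SE 0.38) did not pass (edgeR adjusted p = 0.105). The third was the pair with 1402 contacts on chromosome 1, with a log2 fold change of -0.47 (SE 0.13, adjusted p = 0.208).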

How the data were processed

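Raw Hi-C matrices were deposited for 2 Lenti-GFP and 2 Lenti-AS libraries, made by the authors with HiC-Pro from pairs of 150 bp reads and the Arima kit. They hold, for each pair of 10 kb bins, an unnormalized count of contacts. The deposited 10 kb matrices of balanced signal hold 1 value per pair and group, after the authors merged libraries and balanced them by ICE, and served as an alternative. Deposited 100 kb matrices were not used. The submitters' processing notes list rn6 and Rnor_6.0, and positions count from 1. Aligner settings and duplicate removal are not given in the sources used here, and contacts without removed duplicates would not be independent.

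Peaks were called with Python 3.11.15 on the sum. The contrast was fitted with edgeR 4.0.16 (quasi-likelihood, group only, Benjamini-Hochberg over all candidates), with DESeq2 1.42.0 as an alternative. HiCDCPlus, which the study used, was not run. Library medians were compared with an exact permutation test. Callers were tested on simulated data. Fold changes are on the log2 scale.

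Named are the 6 peaks with the highest enrichment, the 4 with the most contacts, the 3 longest, the anchors of most peaks, the 3 smallest edgeR p in each direction, all called peaks and 3 pairs on either side of the threshold. Corner peaks and the measures of form were chosen after their values were seen. The peaks and lists were chosen with earlier results of these data known. Gene starts, CTCF motifs and sequences at anchors were not analysed here, for want of an rn6 genome. Alternatives changed the thresholds, surroundings, libraries, offsets and boundaries.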

Additional observations from a re-analysis of the deposited data

How the results depend on the processing

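Depth limits single peaks, with medians of 13 to 19 contacts per library. The number of peaks was 41607 with 20 or more contacts, 3617 with 80 or more, and 7897 with both sides required to be 2 times lower. Under the other alternatives on summed libraries it stayed within 1.5 times of 12946. Called in single libraries, with the minimum count scaled to 9 to 13 contacts, the peaks numbered 18510 to 24426. Median distance was 190 kb at an enrichment of 1.5, at 80 contacts and with weighted surroundings, 210 kb with the inner 5 by 5 pairs left out and at bins of 0.5 of the median, 230 kb with the highest count within 4 bins, 240 kb with surroundings up to 10 bins, and 250 kb at an enrichment of 3, at 20 contacts and above both sides. The share of anchors in more than 1 peak was 25.1% at an enrichment of 3, 38.7% at 20 contacts, 11.3% at 80, 23.0% with the highest count within 4 bins and 22.3% above both sides. The share of peaks with both anchors at a boundary was 8.96% at an enrichment of 1.5, 13.0% at 3, 5.82% at 20 contacts, 13.3% at 80, 11.2% with surroundings up to 10 bins, 9.04% with weighted surroundings, 11.8% with the highest count within 4 bins, 10.7% with at least 56 surrounding pairs in use and 14.3% above both sides. It was 2.27% with the boundary in the anchor bin itself, 15.8% within 2 bins, 5.79% at a prominence of 0.5 and 3.87% with a window of 500 kb. With a library left out it was 9.21% to 9.66%, and for peaks called in single libraries 6.22% to 7.43%. Settings on form and on surrounding pairs in use were chosen after seeing the data.

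The difference in median enrichment kept its direction under all 12 alternatives run. It went from 0.00968 in the balanced signal to 0.348 at 80 contacts, and from 0.167 to 0.193 with a library left out. The balanced Lenti-AS matrix holds signal at pairs without a contact in these libraries. Leaving out a library only dropped its median from the group mean, for the same peaks. As both Lenti-AS medians lay above both Lenti-GFP medians, those settings could not turn the direction. The peaks called by edgeR numbered 3 with the cis contacts of both bins in the offsets, of 10 called candidates. With offsets from the surrounding pairs they numbered 2, of 9 called candidates. DESeq2 called 1 peak, which was the only candidate it called. The study's cut-offs on edgeR p-values took 233 peaks, of 1522 candidates. With the replicate number as a block 9 peaks were called, of 26 called candidates. The deviations of libraries with the same number had a correlation of -0.0048 over the candidates. At these pairs the libraries of a group differed by little more than counting noise (chi-square per pair 1.003 and 1.021). The correlation therefore cannot tell whether libraries with the same number share an animal, culture or batch. With the cis contacts of both bins in the offsets, 4 log2 fold changes on chromosome 1 turned, to -0.96 and -1.47 for the calls from 180850001 and 180640001, and to 0.052 and 0.16 for the pairs of 55220001 with 55700001 and 55730001. With offsets from 1 surrounding pair the second of these was -1.99. The alternatives on CTCF motifs were not run, for want of an rn6 genome.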

Other observations

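Contact peaks were found on all 20 numbered chromosomes, with 4.48 per 100 used bins on chromosome 14 to 6.98 on chromosome 17. Of 2516 windows of 1 Mb with at least 50 used bins, 338 (13.4%) held no peak, the median held 4 and the 95th percentile was 13. The window with most, 54 to 55 Mb of chromosome 1, held 46 peaks, of which 32 had more contacts than an anchor with its adjacent bins. The window at 50 to 51 Mb of chromosome 3 held 25, of which 1 had, and that at 12 to 13 Mb of chromosome 8 held 23, of which none had. Of the peaks of chromosome 19, 25.4% had more contacts than an anchor with its adjacent bins, compared with 5.43% on chromosome 10.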
